A study of Mus musculus with 16 samples.

Results

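The transcripts of 10 building blocks of the cardiac cytoskeleton were followed here: the intermediate filament gene desmin (Des), 5 alpha-tubulin genes (Tuba1a, Tuba1b, Tuba1c, Tuba4a and Tuba8) and 4 beta-tubulin genes (Tubb2a, Tubb2b, Tubb5 and Tubb6). They were chosen by symbol, with earlier results of these data known, and make up 10 of the 23946 genes measured. Polyadenylated RNA came from the free walls of the right ventricle (RV) and the left ventricle (LV) of adult male FVB mice, a wild-type inbred strain, aged 10 to 13 weeks. The groups were RV of mice labelled PS (read here as pulmonary artery banding because the protocol names only banding and sham surgery), RV of sham-operated mice, LV of PS mice and LV of sham-operated mice, with 4 libraries each. Banding narrows the vessel that the right ventricle pumps into, so the left ventricle of the same animals is not the directly loaded chamber. The time after surgery is not given in the sources used here, and the number of animals behind the libraries was not stated beyond 4 per group.

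Microtubules are hollow polymers of alpha- and beta-tubulin dimers, and each subunit is encoded by several isotype genes. In heart muscle cells they carry cargo along motor proteins and resist shortening, and in larger animals and people their density and detyrosination are known to increase in overloaded hearts. Desmin is the muscle intermediate filament. It links Z-discs to one another, to the desmosomes at the intercalated disc, to nuclei and to mitochondria, and it is known to anchor detyrosinated microtubules at the sarcomere.

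The upstream sequences of the 4 genes that the results turn on are shown so that the pair that was low in the banded right ventricle can be set against the pair that was high. They are from RefSeq promoter windows of the GRCm38.p6 build, not the mm9 build of the measurements, and 8 of the 10 members had an entry. Bases that GENCODE M21 places in an exon of the gene itself were left out. Each is written 5′ to 3′ on the strand of the gene, and capitals mark E-boxes (CANNTG) and the TATA box (TATAAA). Des and Tubb2a were higher in PS right ventricles, and the first is chr1:75360042-75360291 (+ strand), the second chr13:34078009-34078258 (− strand).
Des: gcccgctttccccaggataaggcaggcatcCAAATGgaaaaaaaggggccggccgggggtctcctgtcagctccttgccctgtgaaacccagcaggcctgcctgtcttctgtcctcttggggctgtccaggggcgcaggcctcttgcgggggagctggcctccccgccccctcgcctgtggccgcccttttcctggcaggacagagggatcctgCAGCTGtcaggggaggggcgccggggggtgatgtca
Tubb2a: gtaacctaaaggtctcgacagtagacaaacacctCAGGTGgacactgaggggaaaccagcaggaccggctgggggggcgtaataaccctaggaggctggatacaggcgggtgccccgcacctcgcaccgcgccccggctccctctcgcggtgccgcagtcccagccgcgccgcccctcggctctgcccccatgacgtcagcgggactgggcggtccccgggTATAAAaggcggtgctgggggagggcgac
Tuba4a and Tuba8 lay lower in PS right ventricles, and Tuba8 passed the test on 1 of the 2 scales described below. Tuba8 is shown over chr6:121210484-121210695 (+ strand), and Tuba4a over chr1:75219295-75219425 (− strand), before 1 of several annotated starts of that gene. The 119 exon bases left out of the Tuba4a window lie just upstream of the printed stretch. That stretch therefore lies inside the gene for transcripts that start further upstream.
Tuba4a: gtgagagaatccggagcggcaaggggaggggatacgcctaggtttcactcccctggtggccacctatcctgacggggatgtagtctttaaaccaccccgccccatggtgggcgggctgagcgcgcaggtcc
Tuba8: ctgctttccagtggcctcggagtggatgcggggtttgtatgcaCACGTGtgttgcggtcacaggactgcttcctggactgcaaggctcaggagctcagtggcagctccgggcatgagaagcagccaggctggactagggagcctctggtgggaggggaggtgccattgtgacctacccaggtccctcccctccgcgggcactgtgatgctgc

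Both strands were searched for 6 motifs. The TATA box, which 12.4% of 32851 RefSeq windows of 250 bases hold, was found in the Tubb2a sequence alone of these 4, at −29 to −24 from the start. The window starts of Des and Tuba4a did not match the start of the GENCODE M21 transcript they were compared with. Motifs nearer those other starts could therefore lie outside the printed sequences. E-boxes were in the Des, Tubb2a and Tuba8 sequences as printed, and 66.2% of all windows hold one. The printed Tuba4a and Tuba8 sequences are shorter than those windows, and the whole Tuba4a window holds an E-box at −134 to −129, across the end of the printed part. The GC box GGGCGG was in the Des, Tubb2a and Tuba4a sequences and in 32.7% of all windows. The CCAAT box (33.8% of windows), the CArG box (1.47%) and the MEF2 site (2.92%) matched none of the 4 sequences. The letters are a description of these windows and say nothing about binding.

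Values were FPKM, counts of fragments divided by transcript length and by the fragments mapped in the library, so that levels can be compared between genes. Both of these scales were used throughout, namely the FPKM as deposited, and the FPKM divided by a scale factor per library (0.83 to 1.27). A gene is called changed where limma on log2(FPKM + 1) gave a Benjamini-Hochberg adjusted p under 0.05 in the same direction on both scales, with 12100 genes tested. Across those genes the median log2 difference between PS and sham was 0.26 as deposited and 0.11 rescaled in RV, and 0.33 and 0.01 in LV. Nothing in the labels says that libraries came from separate animals, so p-values measure the spread between these libraries.

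The libraries differed in ways that touch these results. Depth estimated from the lowest FPKM values was 2341053 to 5835376 fragments in PS RV and 334985 to 1432158 in sham RV, and 3523183 to 8883272 in PS LV and 1696582 to 4494617 in sham LV. The ribosomal entry Rn45s was at 0 in 5 libraries, all PS (2 of RV and 3 of LV), and those 5 had scale factors of 1.20 to 1.27. Summed pancreatic islet markers (Ins1, Ins2, Gcg and Iapp) were 63.0 to 154 FPKM in PS RV and 633 to 2134 FPKM in sham RV, and 24.0 to 58.2 FPKM in PS LV and 86.6 to 2085 FPKM in sham LV. Summed heart muscle markers were at least 14240 FPKM in every library, as the heart tissue labels state.

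Des was the most abundant member, at a mean of 651 FPKM over the 16 libraries, followed by Tuba4a at 309 FPKM and Tuba8 at 95.3 FPKM. Tubb5, the most abundant of the 4 beta-tubulin members, averaged 59.1 FPKM. The order then ran Tubb6 (16.2 FPKM), Tubb2a (13.4 FPKM), Tuba1a (11.3 FPKM), Tuba1b (9.47 FPKM), Tuba1c (2.60 FPKM) and Tubb2b (1.45 FPKM). The ranges of the neighbours Tubb6, Tubb2a, Tuba1a and Tuba1b overlapped across libraries, as did those of Tuba1c and Tubb2b. All 10 members passed the filter of at least 1 FPKM in 4 libraries, and Tubb2b was listed at 0 in 1 library.

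**Figure D1:**
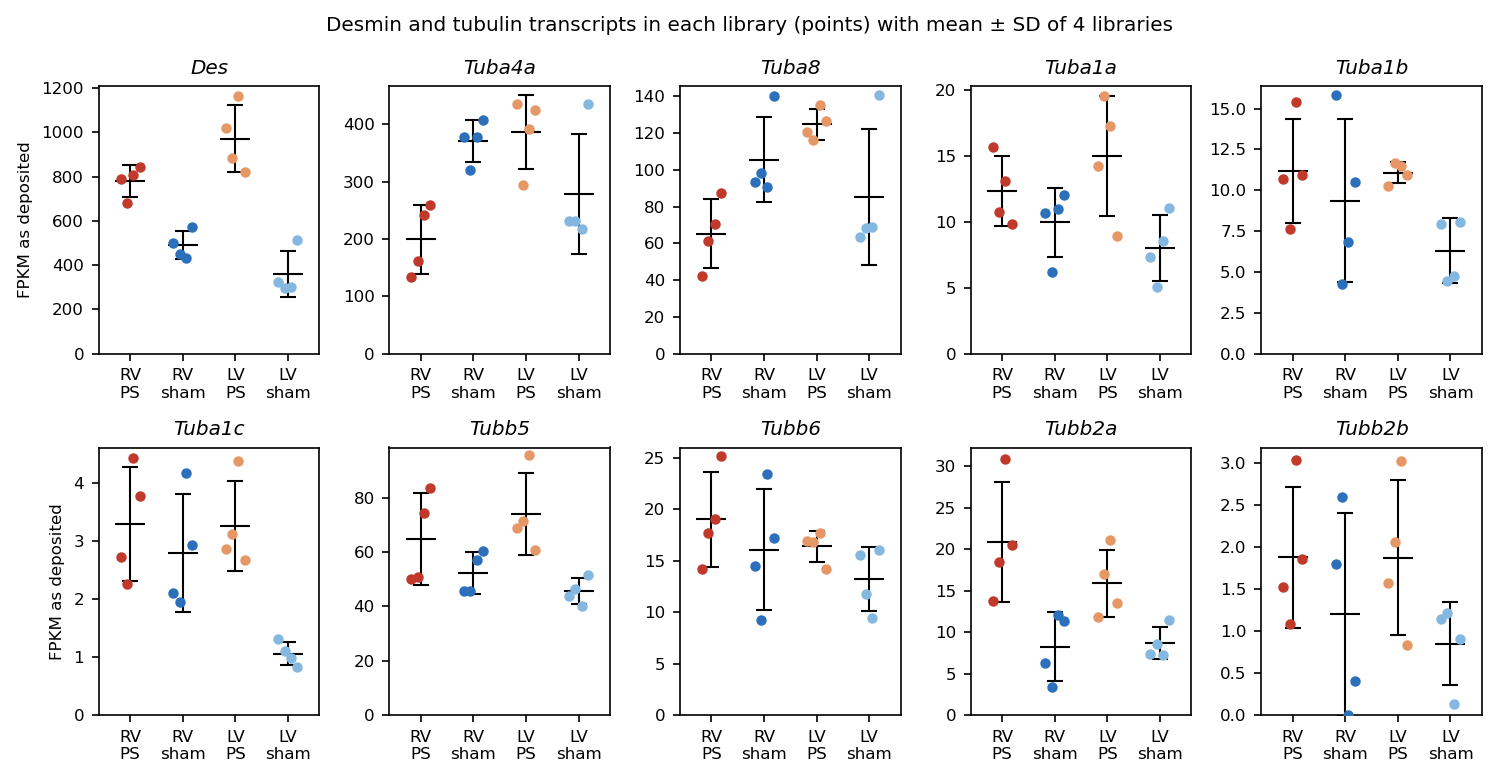
FPKM as deposited (y axis, each panel with its own scale from 0) of the 10 members in each library, with PS left of sham for RV and then LV. Points are libraries and bars are mean ± SD of 4. Des in PS libraries lies above Des in sham libraries in both ventricles, and Tuba4a in PS RV lies below Tuba4a in sham RV.

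In the banded right ventricle, Des and the beta-tubulin Tubb2a rose and the alpha-tubulin Tuba4a fell. That is 3 of 10 members called, where 15.5% of all tested genes were called. The median member difference was 0.29 as deposited and 0.11 rescaled, close to the medians of all genes given above. The other 7 members did not pass on both scales.

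Tuba4a encodes an alpha-tubulin that lacks an encoded final tyrosine, and it was the most abundant tubulin in these libraries. It measured 134, 162, 242 and 259 FPKM in PS RV libraries, in the order of their labels as for every gene below, against 378, 320, 378 and 408 FPKM in sham RV libraries 1 to 4. Every PS RV library lay below every sham RV library. The means were 199 ± 60.8 FPKM in PS RV and 371 ± 36.6 FPKM in sham RV (SD, n = 4 each).
On the log2 scale the difference was −0.94 ± 0.24 as deposited and −1.13 ± 0.21 rescaled (SE), with adjusted p = 0.0134 and 0.00195 by limma. Each of the 16 fits that left out 1 library kept the call, with log2 differences between −1.20 and −0.77. Scaling every library to the same summed FPKM reduced the difference to −0.44 and ended the call (adjusted p = 0.152, limma), where the median of all genes was 0.64. Within PS RV, the 2 libraries with an Rn45s value were the low pair (134 and 162 FPKM) and the 2 with Rn45s at 0 the high pair (242 and 259 FPKM). Using only libraries with an Rn45s value, 2 PS RV against 4 sham RV, the difference was −1.32 as deposited (adjusted p = 0.0233, limma).

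In the same PS and sham RV libraries the summed heart muscle markers (Myh6, Tnnt2, Actc1, Myl2 and Ryr2) were 14240 to 20271 FPKM in PS RV and 20780 to 23096 FPKM in sham RV. Summed skeletal muscle markers, nearly all of it Ckm, which heart also expresses, were 486 to 623 FPKM in PS RV and 890 to 1212 FPKM in sham RV, and Myh4, Myh2 and Myh1 were at 0 in all 4 sham RV libraries. The islet markers given above were also lower in PS RV. The part of these in the Tuba4a result was not tested. In bulk tissue, fewer cells of a type and less RNA per cell cannot be told apart. Of Tuba4a's 50-base windows, 30.3% also occur in another annotated transcript, mostly that of Stk16, a kinase gene that overlaps its 3′ end on the opposite strand. Whether the counting used strand is not given in the sources used here, so reads of the overlap cannot be assigned. Stk16 itself was 10.2 ± 2.76 FPKM in PS RV and 9.20 ± 2.91 FPKM in sham RV (SD, n = 4 each), with overlapping groups. Tuba8 shares 14.7% of its windows, nearly all with Gm15856, and Des shares 5.81% with Gm15179, so a smaller part of their reads is uncertain as well.

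Tuba8 encodes a divergent alpha-tubulin that is known for high expression in striated muscle. It measured 42.1, 61.5, 70.3 and 87.5 FPKM in PS RV libraries, against 93.2, 98.4, 90.6 and 140 FPKM in sham RV libraries. The groups did not overlap, but the closest libraries were 87.5 FPKM in PS and 90.6 FPKM in sham. The means were 65.3 ± 18.9 FPKM in PS RV and 106 ± 23.4 FPKM in sham RV (SD, n = 4 each). The log2 difference was −0.71 ± 0.25 as deposited and −0.90 ± 0.22 rescaled (SE). It passed rescaled (adjusted p = 0.00953, limma) and missed as deposited (adjusted p = 0.0546), so Tuba8 is not called. It was called without sham LV library 4, at the same log2 difference (adjusted p = 0.0218 as deposited and 0.00151 rescaled, limma), and without the PS RV library at 87.5 FPKM.

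The remaining alpha-tubulins, which are the near-identical and broadly expressed Tuba1a, Tuba1b and Tuba1c, overlapped between PS RV and sham RV. Tuba1a was 9.80 to 15.7 FPKM in PS RV and 6.16 to 12.03 FPKM in sham RV. Tuba1b was 7.65 to 15.4 FPKM in PS RV and 4.27 to 15.8 FPKM in sham RV. Tuba1c was 2.27 to 4.43 FPKM in PS RV and 1.94 to 4.17 FPKM in sham RV. These genes share 61.0% to 83.1% of their 50-base windows with other genes, mainly each other, so the split of reads among them is uncertain. Their sum avoids that split and also overlapped, at 20.7 to 32.9 FPKM in PS RV and 12.4 to 28.6 FPKM in sham RV.

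Tubb2a is a beta-tubulin best known from the nervous system. It measured 13.7, 18.5, 30.9 and 20.5 FPKM in PS RV libraries, against 6.31, 3.34, 12.04 and 11.3 FPKM in sham RV libraries. All 4 PS libraries were above all 4 sham libraries. This gave a log2 difference of 1.32 ± 0.32 as deposited (2.49-fold) and 1.15 ± 0.29 rescaled (SE), with adjusted p = 0.0104 and 0.0119 by limma.
The call was kept in each of the 16 fits without 1 library. It was lost when only the RV libraries were fitted (adjusted p = 0.0560 as deposited and 0.0604 rescaled, limma) and in libraries with an Rn45s value (log2 difference 1.003, adjusted p = 0.220). The sham RV values rest on an estimated 1.58 to 17.3 fragments per library, against 45.3 to 235 in PS RV. Tubb2a shares 49.6% of its 50-base windows with other genes, chiefly Tubb2b, and the sum of both did not overlap either, at 15.2 to 33.9 FPKM in PS RV and 5.93 to 12.04 FPKM in sham RV. Summed neuron and Schwann cell markers also stood higher, at 26.4 to 40.4 FPKM in PS RV and 6.33 to 13.3 FPKM in sham RV. Of these 6 markers 3 were tested and 1 was called in RV. Their median log2 difference was 0.25 as deposited and 0.16 rescaled, beside 0.26 and 0.11 for all genes. In LV the sums were 12.4 to 28.4 FPKM in PS and 6.10 to 10.4 FPKM in sham, where Tubb2a was not called. The defining marker Tubb3 was at 0 in all 4 sham RV libraries. The part of these markers in the Tubb2a result was not tested.

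The other beta-tubulins did not pass. Tubb5, a broadly expressed isotype, was 49.9 to 83.7 FPKM in PS RV and 45.5 to 60.2 FPKM in sham RV. Tubb6, known to rise in injured striated muscle of mice, was 14.2 to 25.2 FPKM in PS RV and 9.22 to 23.4 FPKM in sham RV. Tubb2b was 1.08 to 3.04 FPKM in PS RV and 0 to 2.60 FPKM in sham RV, and PS RV and sham RV overlapped for all 3 genes.

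Des measured 791, 679, 809 and 844 FPKM in PS RV libraries, against 502, 450, 433 and 573 FPKM in sham RV libraries. The lowest PS value was above the highest sham value. The means were 781 ± 71.3 FPKM in PS RV and 490 ± 62.8 FPKM in sham RV (SD, n = 4 each). The log2 difference was 0.68 ± 0.18 as deposited (1.60-fold) and 0.48 ± 0.16 rescaled (SE), and adjusted p was 0.0180 and 0.0468 by limma.
The rescaled p lies close to the threshold. The call was lost in 14 of the 16 fits without 1 library, whose larger adjusted p ran from 0.0525 to 0.122 (limma), and kept without sham LV library 1 or 4. The log2 difference in those 16 fits stayed between 0.39 and 0.75. In libraries with an Rn45s value it was 0.59 as deposited, with adjusted p = 0.203 (limma). A pseudocount of 5, no filter on low values and library weights ended the call too, the last with adjusted p = 0.116 as deposited and 0.156 rescaled (limma).
Summed smooth muscle and pericyte markers, of cells that also express desmin, were 196 to 264 FPKM in PS RV and 142 to 156 FPKM in sham RV. Summed endothelial markers were 205 to 279 FPKM in PS RV and 151 to 189 FPKM in sham RV. Summed heart muscle markers went the other way, at 14240 to 20271 FPKM in PS RV and 20780 to 23096 FPKM in sham RV. All 5 markers of each list were in the table, and none was at 0 throughout PS RV or sham RV. Their part in the Des result was not tested.

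In the left ventricle of the same operation, Des and the low-level Tuba1c rose. Des had the largest difference on the log2(FPKM + 1) scale, which understates low genes such as Tuba1c. Both genes were called. That is 2 of 10 members called, against 2.74% of all tested genes. All 10 members had a positive difference as deposited, with a median of 0.72, and the median was 0.40 rescaled, where the medians of all genes were 0.33 and 0.01.

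Des measured 1021, 882, 1165 and 822 FPKM in PS LV libraries, against 324, 297, 302 and 515 FPKM in sham LV libraries. The groups were far apart, and sham library 4 was the highest of its group. The means were 972 ± 153 FPKM in PS LV and 360 ± 104 FPKM in sham LV (SD, n = 4 each). The log2 difference was 1.46 ± 0.18 as deposited (2.75-fold) and 1.05 ± 0.16 rescaled (SE), with adjusted p = 0.000701 and 0.00741 by limma.
The call was kept in each of the 16 fits without 1 library, with log2 differences between 0.97 and 1.64. In libraries with an Rn45s value, where 1 PS LV library was left against 4 sham LV libraries, the difference was 1.23 as deposited and did not pass (adjusted p = 0.877, limma). That fit takes the lone PS library to vary like the other groups. Summed heart muscle markers were 29640 to 36770 FPKM in PS LV and 14939 to 23233 FPKM in sham LV. Summed smooth muscle and pericyte markers overlapped, at 139 to 279 FPKM in PS LV and 105 to 164 FPKM in sham LV. So did endothelial markers, at 188 to 294 FPKM in PS LV and 163 to 205 FPKM in sham LV. The part of these markers in the Des result was not tested.

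Tuba1c measured 2.87, 3.12, 4.39 and 2.67 FPKM in PS LV libraries, against 1.31, 1.11, 0.986 and 0.832 FPKM in sham LV libraries. The groups did not overlap. These gave a log2 difference of 1.04 ± 0.23 as deposited and 0.77 ± 0.20 rescaled (SE), with adjusted p = 0.00776 and 0.0385 by limma. The call was lost in 10 of the 16 fits without 1 library, among them each of the 8 that left out an LV library and those without 1 of the 2 PS RV libraries that have an Rn45s value (larger adjusted p 0.0501 to 0.124). The sham LV values rest on an estimated 3.35 to 6.67 fragments per library, and reads shared with Tuba1a and Tuba1b make the assignment uncertain.

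Among the tubulins without a call in LV, Tuba1a and Tubb5 passed as deposited only. Tuba1a measured 14.2, 19.5, 17.2 and 8.94 FPKM in PS LV and 7.29, 5.06, 8.51 and 11.0 FPKM in sham LV, with overlap. Tubb5 measured 68.9, 71.4, 95.7 and 60.6 FPKM in PS LV and 43.8, 46.5, 40.2 and 51.6 FPKM in sham LV, without overlap. For Tuba1a the adjusted p was 0.0456 as deposited and 0.344 rescaled, and for Tubb5 it was 0.0242 as deposited and 0.262 rescaled, by limma.
Tuba4a, low in the banded right ventricle, was not low in the left. It measured 436, 294, 391 and 426 FPKM in PS LV, against 231, 232, 217 and 435 FPKM in sham LV. Tuba8 measured 120, 116, 135 and 127 FPKM in PS LV, against 63.7, 68.2, 69.0 and 141 FPKM in sham LV. In both genes 3 of the sham LV libraries lay below all 4 PS LV libraries and sham library 4 lay near or above the highest. Neither gene passed on either scale.

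**Figure D2:**
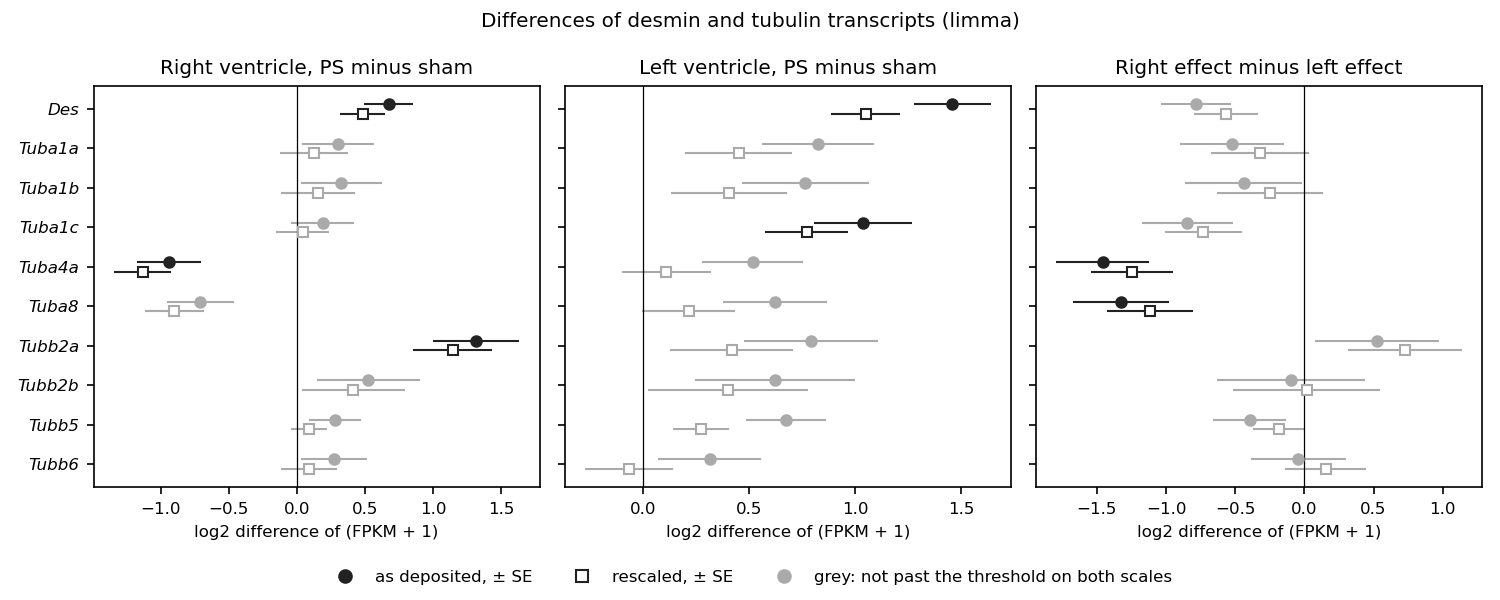
Log2 differences of (FPKM + 1) with SE from limma (x axis) for each member (rows) in RV, PS minus sham, in LV, PS minus sham, and for the RV effect minus the LV effect. Circles are values as deposited, squares are rescaled, and dark symbols mark calls on both scales; Tuba4a and Tuba8 are dark in the third panel.

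The effect of banding differed between the ventricles for Tuba4a and Tuba8, and both differences were negative, meaning a lower effect in RV than in LV. These 2 of 10 members compare with 3.98% of all tested genes. For Tuba4a the difference of effects was −1.46 ± 0.34 as deposited and −1.24 ± 0.30 rescaled (SE), with adjusted p = 0.0145 and 0.0222 by limma. For Tuba8 it was −1.33 ± 0.35 and −1.12 ± 0.31, with adjusted p = 0.0295 and 0.0450 by limma.
Without sham LV library 4, the library that stood high in both genes, the differences were −1.69 for Tuba4a and −1.60 for Tuba8 as deposited. The Tuba4a call was lost without the first or the last of the PS LV libraries (436 and 426 FPKM) or without sham LV library 1 or 3 (larger adjusted p 0.0509 to 0.0551), and the Tuba8 call was lost in 14 of the 16 such fits (0.0520 to 0.0985). Correction for transcript length and GC content kept Tuba4a (−1.24, adjusted p = 0.0256) and ended the call of Tuba8 (−0.98, adjusted p = 0.0996). Scaling to an equal FPKM sum ended both calls, at −0.76 for Tuba4a and −0.64 for Tuba8 (adjusted p = 0.177 and 0.282, limma), where the median of all genes was 0.47. Quantile normalization ended both as well, at −0.67 and −0.75 (adjusted p = 0.207 and 0.181). With a block for each number that RV and LV libraries share, Tuba8 kept its call and Tuba4a passed as deposited alone. That fit called 178 of the 12100 tested genes, against 482 without the block.
Des rose in both ventricles, and its difference of effects of −0.78 ± 0.26 as deposited did not pass (adjusted p = 0.0835, limma). Without sham LV library 4 it did, at −0.97 (adjusted p = 0.00920 as deposited and 0.0198 rescaled). Scaling to an equal FPKM sum put the Des difference at −0.087 (adjusted p = 0.898, limma), and quantile normalization turned it positive. The difference for Tubb2a was 0.53 ± 0.45 as deposited (adjusted p = 0.608), so a rise in RV and none called in LV are not shown to differ.

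Between the chambers of the same operation few members differed. In PS mice none of the 10 was called in RV against LV, where 1.57% of all genes were. At an unadjusted p under 0.05, 2 members stood out as deposited. They were Tuba4a and Tuba8, with log2 differences of −0.99 and −0.97 and adjusted p of 0.0321 and 0.0420 by limma. As deposited, 373 of 12100 genes passed the adjusted threshold. Rescaled, Tuba4a and Tuba8 missed at 0.0502 and 0.0626. Without sham LV library 4, which here bears only on the estimated spread, both were called (larger adjusted p 0.0131 and 0.0124, limma), and without sham RV library 2 Tuba4a was. In each gene the 4 PS RV libraries lay below the 4 PS LV libraries.
In sham mice Tuba1c alone was called, against 3.88% of all genes. It measured 2.10, 1.94, 4.17 and 2.94 FPKM in sham RV, against 1.31, 1.11, 0.986 and 0.832 FPKM in sham LV. The log2 difference was 0.85 as deposited and 0.84 rescaled (adjusted p = 0.0476 and 0.0186, limma), and 14 of the 16 fits without 1 library lost the call (larger adjusted p 0.0528 to 0.119). Sham RV values of Tuba1c rest on an estimated 1.16 to 5.68 fragments. Without sham LV library 4, Tuba1c was not called and Des was, with a log2 difference of 0.66 as deposited (adjusted p = 0.0289, limma).

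Ratios within a library do not depend on how it is scaled. The 5 alpha-tubulins summed to 2.72 ± 0.10 times the 4 beta-tubulins in PS RV and 6.53 ± 0.91 times in sham RV (SD, n = 4 each). The 4 PS RV libraries lay between 2.58 and 2.83, below all 12 others. The ratio was 5.14 ± 1.21 in PS LV and 5.46 ± 1.36 in sham LV, and these overlapped. With every listed tubulin of the table in the sums, PS RV remained the lowest, at 1.68 to 1.83, against 3.01 to 3.37 in sham RV.
Tuba4a and Tuba8 together made 85.8% to 93.4% of the summed FPKM of the 5 alpha-tubulin members in PS RV and 94.3% to 97.1% in sham RV. Tuba4a alone was 67.9% ± 2.45 of it in PS RV and 74.5% ± 2.53 in sham RV. The share of Tuba1a, Tuba1b and Tuba1c was correspondingly 9.70% ± 3.24 in PS RV and 4.38% ± 1.17 in sham RV. Tubb2a made 19.5% ± 3.87 of the summed FPKM of the 4 beta-tubulin members in PS RV and 10.1% ± 3.52 in sham RV. With every listed beta-tubulin in the sum, its share was 12.4% in PS RV and 5.02% in sham RV. Tubb5 made 60.7% ± 3.07 of the 4 members in PS RV and 67.8% ± 5.52 in sham RV. That order turned round with every listed beta-tubulin in the sum (38.7% in PS RV and 33.1% in sham RV).
Des stood at 3.26 to 5.92 times Tuba4a in PS RV and 1.15 to 1.41 times in sham RV. In LV the same ratio was 1.93 to 2.999 in PS and 1.18 to 1.40 in sham. It was higher in every PS library than in every sham library of the same ventricle. The ratio of Tuba4a to Tuba8 overlapped between all groups, at 2.64 to 3.44 in PS RV and 2.91 to 4.17 in sham RV. These ratios are descriptions and carry no test.

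**Figure D3:**
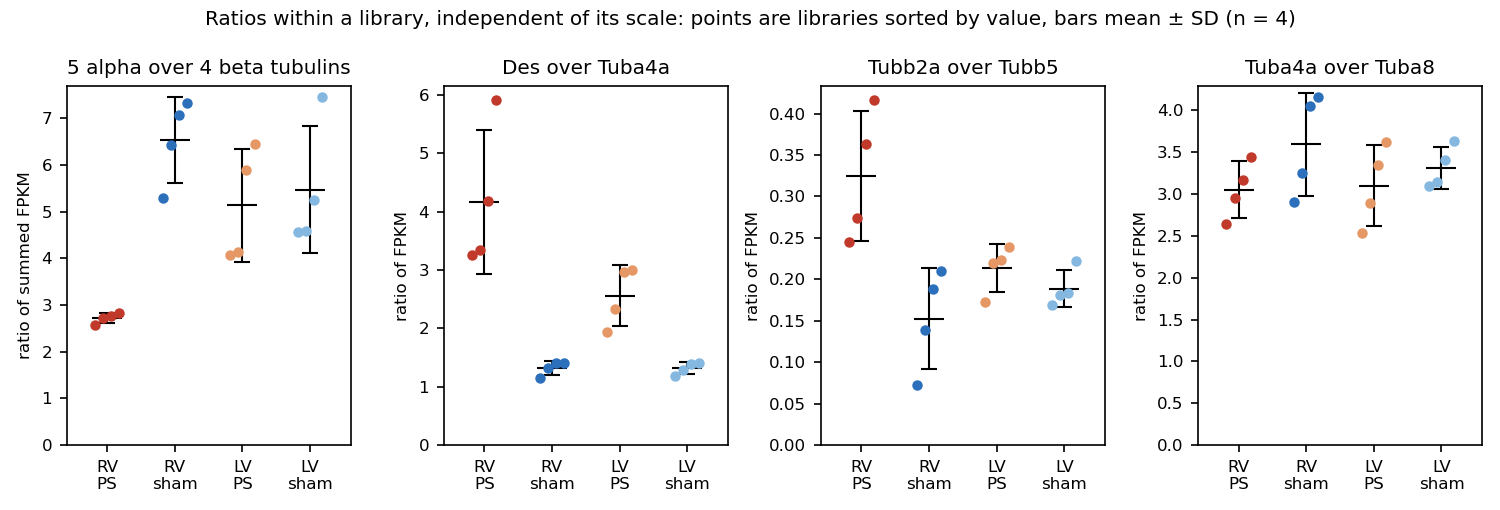
Ratios of FPKM within each library (y axis, from 0), with PS left of sham for RV and then LV. Points are libraries in order of value and bars are mean ± SD of 4. The alpha over beta ratio of the 4 PS RV libraries (2.58 to 2.83) lies below every other library.

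The genes nearest to Des in pattern over the 16 libraries, by root mean square difference of centred log2(rescaled FPKM + 1) among 6670 genes, were P4hb (0.17), Mfge8 (0.18) and Ecm1 (0.20), where Des itself had a spread of 0.46. P4hb encodes a protein disulfide isomerase and averaged 63.8 FPKM in PS RV and 41.8 FPKM in sham RV. Nearest to the mean of the 9 tubulins were Ctsa (0.14), Mrps27 (0.15) and Derl1 (0.15), where that mean had a spread of 0.19. That mean averages members that went opposite ways in RV, so it stands for none of them.

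Genes that fold, modify, bind or use microtubules were examined as lists, beside RV medians of all genes of 0.26 as deposited and 0.11 rescaled. The RV medians of the lists were −0.44 as deposited and −0.63 rescaled for other tubulins, 0.20 and 0.03 for folding cofactors, 0.18 and 0.09 for modifying enzymes, 0.60 and 0.43 for associated proteins, 0.52 and 0.33 for motors, 0.54 and 0.36 for other intermediate filaments and 0.33 and 0.14 for desmin partners and chaperones. Of 5 other tubulins tested by limma none was called in RV on both scales, and Tubb4b and Tubg1 passed rescaled only (adjusted p = 0.0363 and 0.0126), while Tubg2 passed as deposited only (adjusted p = 0.0483), with 3 of 5 at an unadjusted p under 0.05 as deposited. Among 12100 tested genes, 2409 passed the adjusted threshold in RV rescaled and 2108 as deposited. Tubb4b was 58.4 ± 15.2 FPKM in PS RV and 78.6 ± 16.2 FPKM in sham RV, and its RV effect was lower than its LV effect by a log2 difference of −1.36 as deposited (adjusted p = 0.0177, limma). Tubg1, the gamma-tubulin of nucleation sites, gave −1.36 there (adjusted p = 0.0174). Of all tested genes, 3.45% were called lower for the difference of effects. Under the length and GC correction neither the Tubb4b call nor the Tubg1 call held.
Of 21 tubulin folding cofactors, 1 was called in RV, against 10.5% of all genes up and 4.93% down. This was Tcp1, a subunit of the chaperonin that folds tubulin and actin, at 23.8 ± 6.78 FPKM in PS RV and 10.5 ± 1.23 FPKM in sham RV (log2 difference 1.07 as deposited, adjusted p = 0.0102, limma). It was not called under the correction (adjusted p = 0.0828). For the difference of effects, Arl2, Cct7, Pfdn1 and Pfdn5 were called lower, where 3.45% of all genes were. The correction kept Cct7 and Pfdn5. Pfdn1 and Pfdn5 encode subunits of prefoldin, which hands unfolded tubulin to the chaperonin. They were the 2 called in LV, where 2.44% of all genes rose. Their log2 differences in LV were 1.21 and 1.51 as deposited.

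Of 15 tubulin modifying enzymes, 2 rose and 1 fell in RV, a share near the 15.5% of all genes called. Tgm2, a transglutaminase, was 162 ± 10.7 FPKM in PS RV and 75.1 ± 35.2 FPKM in sham RV. Ttl, the ligase that puts the tyrosine back on alpha-tubulin, was 8.21 ± 1.79 FPKM in PS RV and 4.72 ± 1.03 FPKM in sham RV, a log2 difference of 0.69 as deposited (adjusted p = 0.0255, limma) that did not pass under the correction (0.0971). Ttll1, a polyglutamylase, was 11.0 ± 1.27 FPKM in PS RV and 25.8 ± 8.895 FPKM in sham RV, a difference of −1.09 (adjusted p = 0.00490). It was also lower for the difference of effects (−1.40, adjusted p = 0.0151).

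Of 31 microtubule-associated proteins, 10 rose and none fell in RV, where 10.5% of all genes rose, and Mapre1 was the 1 that rose in LV, where 2.44% of all genes rose. None of the 31 was called on both scales for the difference of effects, so by that rule the RV and LV effects are not shown to differ. At an unadjusted p under 0.05 by limma there were 8 as deposited and 14 rescaled. Rescaled alone, 5 of the 31 passed the adjusted threshold, where 687 of 12100 genes did. As deposited, 0 of the 31 passed it, where 733 of 12100 genes did. Map4, a microtubule-stabilising protein, was 122 ± 35.8 FPKM in PS RV and 54.7 ± 3.21 FPKM in sham RV (log2 difference 1.10 as deposited, adjusted p = 0.00146, limma). Map1b was 6.39 ± 2.12 FPKM in PS RV and 1.86 ± 0.41 FPKM in sham RV, and Map1a was 5.197 ± 1.52 FPKM in PS RV and 1.53 ± 0.295 FPKM in sham RV. Clip1, which binds growing ends, was 54.6 ± 18.5 FPKM in PS RV and 22.3 ± 8.26 FPKM in sham RV.
Of 22 microtubule motor genes, 6 rose and none fell in RV, against 10.5% of all genes up, and none was called in LV by limma. As deposited, 12 of 22 had an unadjusted p under 0.05 in LV. The adjusted threshold was passed there by 5 of the 22, where 1764 of 12100 genes passed it. For the difference of effects none of the 22 was called on both scales (2 at an unadjusted p under 0.05 as deposited and 6 rescaled, limma). Rescaled alone, 2 of the 22 motors passed the adjusted threshold, where 687 of 12100 genes did. As deposited, 0 of the 22 passed it, where 733 of 12100 genes did. Under the length and GC correction Dync1li1 and Klc1 were called higher for the difference of effects, where 145 of 11554 genes were. Under it Dync1h1 rose in LV, where 252 of 11554 genes did (Klc1 was named after its values were seen). The dynein light intermediate chain Dync1li1 was 37.3 ± 11.7 FPKM in PS RV and 13.6 ± 2.10 FPKM in sham RV (log2 difference 1.35 as deposited, adjusted p = 0.000585, limma). The kinesin heavy chain Kif5b was 30.3 ± 15.7 FPKM in PS RV and 11.3 ± 3.01 FPKM in sham RV. The median transcript length was 5090 bases for the associated proteins and 4268 bases for the motors, against 3339 bases for all tested genes with a length and 2082 bases for the 10 members. Under the length and GC correction 8 associated proteins rose and 1 fell in RV, and 5 motors rose and Kif13b fell. Kif13b was named after its values were seen. Of 11554 genes, 800 rose and 1125 fell in RV under that correction. In libraries with an Rn45s value, 2 associated proteins (Map1b and Map4) and 1 motor (Dync1li1) were called higher in RV. Among all genes, 169 of 12100 were.

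Of 10 other intermediate filament genes, 3 rose and 1 fell in RV, against the same 10.5% up and 4.93% down. Nes was 15.2 ± 3.53 FPKM in PS RV and 6.75 ± 1.45 FPKM in sham RV, and Vim, the filament of mesenchymal cells, was 128 ± 19.5 FPKM in PS RV and 78.1 ± 7.43 FPKM in sham RV. Krt18 rose at a low level, and Prph fell to 0.195 ± 0.131 FPKM in PS RV, against 2.53 ± 1.57 FPKM in sham RV. Summed fibroblast markers were 284 to 469 FPKM in PS RV and 196 to 263 FPKM in sham RV, and their part in the Vim result was not tested. Under the length and GC correction Vim did not pass in RV (adjusted p = 0.255, limma). Vim also rose in LV, at 161 ± 53.9 FPKM in PS LV and 66.0 ± 8.55 FPKM in sham LV.
Of 26 desmin partners and chaperones, 6 rose and 2 fell in RV, against 10.5% of all genes up and 4.93% down. Dsp, the desmosome protein that ties desmin to the cell junction, was 184 ± 60.0 FPKM in PS RV and 72.4 ± 14.2 FPKM in sham RV (log2 difference 1.30 as deposited, adjusted p = 0.00110, limma). Dmd and Pkp2 were the next by p, with log2 differences of 1.33 and 0.62 as deposited, and Pkp2 did not pass under the correction (adjusted p = 0.137, limma). Ldb3, a Z-disc protein, was 298 ± 55.7 FPKM in PS RV and 505 ± 82.8 FPKM in sham RV. Cryab, the small heat shock protein that chaperones desmin, was 2025 ± 182 FPKM in PS RV and 3277 ± 860 FPKM in sham RV, a difference of −0.66 (adjusted p = 0.0256, limma). Cryab and Trim54 were called lower for the difference of effects, at −1.38 and −1.19 as deposited, against 3.45% of all genes. Neither was called there under the length and GC correction.

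**Figure D4:**
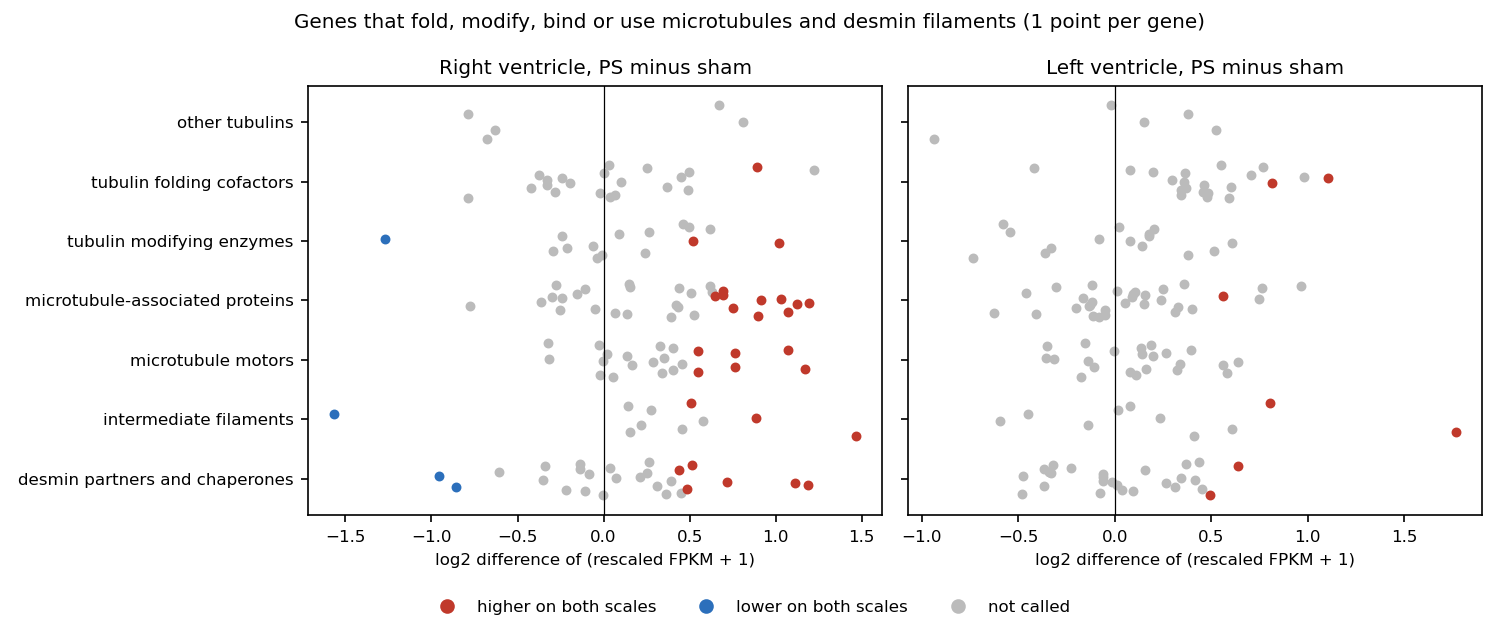
Log2 differences of (rescaled FPKM + 1), PS minus sham, in RV and in LV (x axes) for tested genes of 7 lists (rows), 1 point per gene. Colours mark calls on both scales. In RV, 10 of 31 associated proteins and 6 of 22 motors are marked higher, and in LV 1 and none are.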

How the data were processed

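FPKM values for 23946 genes in 16 libraries (4 groups of 4) were deposited by the authors. Per the submitters' processing notes, the tools named were FastQC 0.11.5, STAR 2.5.3a, Cufflinks 2.2.1, Cuffdiff and R 3.3.1, with build mm9. The role of each tool, strand use and count tables are not given in the sources used here, so no count test was run. Other per-sample value columns without a library label numbered 0.

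Values were taken as log2(FPKM + 1) for the 12100 genes that reached 1 FPKM in 4 libraries, and were fitted in limma 3.58.1 (R 4.3.3, trended prior) as 4 group means. The fit was repeated on values divided by library scale factors (median ratios, 8211 genes). Benjamini-Hochberg adjustment ran over all tested genes of each of 5 comparisons, at a threshold of 0.05, and the code was tested on simulated data. Fold changes are on the log2(FPKM + 1) scale and understate those of low genes. Depth was estimated by taking the lowest FPKM values as 1 fragment, with a fragment length of 200 bases, so it is approximate. Transcript lengths and shared 50-base windows came from GENCODE M21, and the length and GC correction covered 11554 genes.

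From each of 7 lists, up to 4 genes per direction with the smallest p in RV were named, plus those called for the difference of effects, and the 3 genes nearest in pattern. The 10 members and the lists were chosen with earlier results of these data known. Marker lists for 10 cell types were read as summed FPKM. Alternatives covered pseudocount, filter, scaling, prior, libraries fitted, the replicate block, length and GC, library weights and leaving out each library. The length and GC correction and library weights were chosen after seeing the data.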

Additional observations from a re-analysis of the deposited data

Results flagged for a closer look

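Sham LV library 4 stood above the other 3 sham LV libraries in 3 members. Tuba4a was 435 FPKM there, where the others spanned 217 to 232 FPKM. Tuba8 was 141 FPKM, where the others spanned 63.7 to 69.0 FPKM, and Des was 515 FPKM, where the others spanned 297 to 324 FPKM. In sham RV, library 4 stood apart in Tuba8 alone, at 140 FPKM against 90.6 to 98.4 FPKM in the others. In each case the gap to the nearest library exceeded Dixon's 95% critical value for 4 samples, as a share of the whole range. These are 4 of 40 member and group combinations checked, and chance flags about 1 in 20.

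The response to banding differed between the ventricles by the tested difference of effects for Tuba4a (−1.46 on the log2 scale as deposited) and for Tuba8 (−1.33).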

How the results depend on the processing

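In RV, PS against sham, scaling to an equal FPKM sum called 6 members (Des, Tuba1b, Tuba1c, Tubb2a, Tubb5 and Tubb6 higher), and both the RV-only fit and libraries with an Rn45s value called 1, Tuba4a. Of the 12100 tested genes, equal sums called 5821 in RV (5679 higher), the RV-only fit 810 and libraries with an Rn45s value 393. Leaving out each library gave 2 to 4. In LV the 2 calls became 1, Des, with a pseudocount of 5, with no filter, with a filter at 5 FPKM (which leaves Tuba1c untested), with equal sums and with the length and GC correction. Values as deposited alone called 4, and library weights called 3 (with Tubb5). Libraries with an Rn45s value include 1 PS LV library, so no LV count is read from them. Of the 12100 tested genes, values as deposited alone called 1764 in LV and library weights 1489. Leaving out each library gave 1 to 2 members.

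For the difference of effects the 2 calls became 1 with no filter (Tuba4a), with quantile normalization (Tuba1c), under the replicate block (Tuba8, while Tuba4a passed as deposited alone) and under the length and GC correction (Tuba4a), and 0 with equal sums. Rn45s libraries include 1 PS LV library, so no count of this difference is read from them. Of all genes, no filter called 384 of 17756, quantile normalization 521 of 12100, the block 178 of 12100, the correction 543 of 11554 and equal sums 754 of 12100. Leaving out each library gave 0 to 3 members. For PS RV against LV the count of 0 became 1 with a robust prior and under the length and GC correction, and 2 with a filter at 5 FPKM, with only those libraries fitted, with library weights and with values as deposited alone, and 0 to 2 on leaving out each library. The settings with 2 members called, in that order, 281 of 7909 genes, and 261, 759 and 373 of 12100. For sham RV against LV the count of 1 became 0 with a pseudocount of 5, no filter, a filter at 5 FPKM, equal sums, a robust prior, only those libraries fitted, the replicate block, Rn45s libraries, the length and GC correction and library weights, and 0 to 1 on leaving out each library. In that order, the first 3 settings called 389 of 12100, 358 of 17756 and 479 of 7909 genes. The next 5 called 3008, 488, 40, 108 and 275 of 12100. The correction called 492 of 11554 and library weights 261 of 12100. The cause was not tested.

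Tuba1c in RV turned negative with quantile normalization (−0.15) and in Rn45s libraries (−0.082), as did Tubb5 in those libraries (−0.037). In LV, Tuba4a turned negative with quantile normalization (−0.16), and Tubb6 with quantile normalization (−0.085), the length and GC correction (−0.084) and rescaled values (−0.065). The difference of effects for Des turned positive with quantile normalization (0.076). None of these passed.

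With every listed tubulin in the sum, the share of Tubb2a was 12.4% in PS RV, 5.02% in sham RV, 8.002% in PS LV and 7.39% in sham LV, and that of Tubb5 was 38.7% in PS RV, 33.1% in sham RV, 37.6% in PS LV and 39.4% in sham LV. Des over the tubulin sum was 0.75 in sham RV and 0.73 in sham LV.

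No label says whether equal numbers in RV and LV mark the same mouse, and the main fit treats those libraries as independent. In 1 of 8 pairs the deviations correlated above 0.1 (0.16), and in no other did the RV library correlate best with its own number. Such correlations, with 4 libraries per group, cannot exclude a shared mouse. The replicate block is therefore a check on numbers only. It could not be fitted for PS against sham, where no number is shared. Estimated depth, lowest in sham RV, limits Tuba1c, Tubb2a and Tubb2b most.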
